A study of Solanum lycopersicum with 12 samples.

Results

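PT2, AMT1-2 and NRAMP1 are tomato genes for 3 transporters that move mineral nutrients across membranes, for phosphate, ammonium and metals. They were taken by gene symbol from the annotation of an Affymetrix tomato array, on which each is read by 1 probe set (Les.102.1.S1_at, Les.3640.1.S1_at and Les.4303.1.S1_at), so they make up 3 of the 626 named genes of the array and 3 of the 10101 plant probe sets tested. RNA came from whole plants of PI365967, a tomato accession known as wild and as tolerant of salt, and of the cultivar Moneymaker, both labelled Solanum lycopersicum. Plants 4 weeks old with 6 true leaves stood in aerated hydroponic tanks of dilute Hoagland nutrient solution. After 3 d of acclimation the solution was renewed for 5 h with 200 mM NaCl (salt) or with 0 mM NaCl (control). The 4 groups are thus PI365967 under salt, PI365967 control, Moneymaker under salt and Moneymaker control. There were 3 arrays in each group, hybridized with separate pools of 3 plants, so that single plants within a pool cannot be seen.

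PT2 belongs to the family of proton-coupled phosphate transporters that load phosphate into root cells, and in tomato it is known as a gene of the root surface that is switched on when phosphate is short. AMT1-2 is a member of the AMT1 family of high-affinity ammonium transporters, plasma membrane proteins that take up ammonium from the soil solution and recover it inside the plant. NRAMP1 belongs to the natural resistance-associated macrophage protein family, which moves divalent metals such as iron and manganese across membranes. In tomato roots its expression is known to depend on FER, the transcription factor that governs iron uptake.

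All 3 transporter genes were lower under salt in both genotypes. PT2 fell furthest: its normalized intensity, with 16 added to all values as in the tests, was 33.9% of the control in PI365967 and 11.8% in Moneymaker. AMT1-2 fell to 51.8% in PI365967 and to 24.2% in Moneymaker. NRAMP1 fell to 52.7% in PI365967 and to 35.3% in Moneymaker on this scale, where the added 16 is large beside its weak signal. Without the 16, its group levels were 19.9 in PI365967 under salt and 52.1 in PI365967 controls, and 21.8 in Moneymaker under salt and 91.2 in Moneymaker controls. The fall of AMT1-2 was smaller in PI365967 than in Moneymaker by a test of the difference itself under all 18 alternative settings. For PT2 the same test was past the threshold but lost the call in 10 of 18 settings, and for NRAMP1 it was not past the threshold. Falls of this kind were common on the array: 24% of all probe sets were called lower under salt in PI365967 and 31% in Moneymaker, and 1991 (19.7%) were called lower in both, so that the count of 3 of 3 says little by itself.

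**Figure D1:**
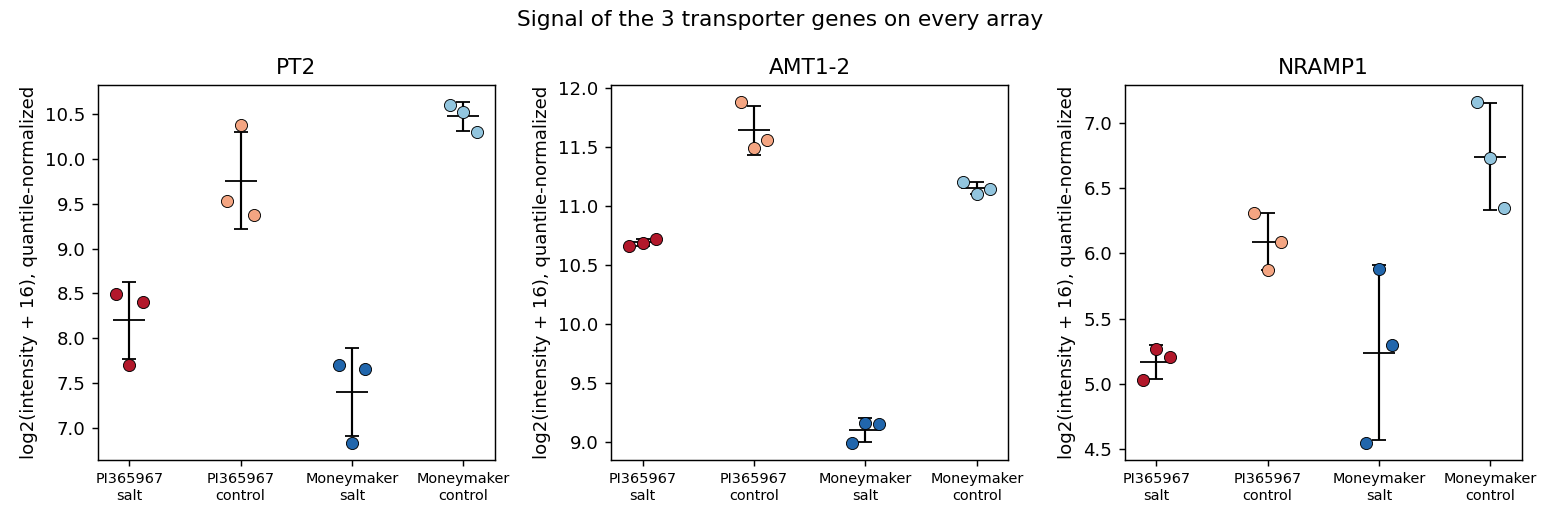
Normalized log2 signal (log2 of intensity plus 16, vertical axis) of PT2, AMT1-2 and NRAMP1 on each array, in the 4 groups along the horizontal axis. Points are arrays, the long bar is the group mean and the whiskers are 1 SD (n = 3); in each panel the salt points lie below the control points of the same genotype, and the vertical scales differ between panels.

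The deposited PT2 intensities were 319, 153 and 393 in PI365967 under salt, against 804, 1126 and 532 in PI365967 controls. In Moneymaker they were 198, 72.8 and 187 under salt, against 2239, 1339 and 1332 in controls. In both genotypes the highest salt array lay below the lowest control array, and before scaling the Moneymaker controls stood above all other arrays, while after it PI365967 control array 2 (10.38) lay above Moneymaker control array 3 (10.30). After normalization, salt arrays lay wholly below controls for 29% of all probe sets in PI365967 and for 34.8% in Moneymaker. These intensities were not scaled between arrays, whose medians ran from 332.8 to 633.2, so the comparisons below rest on log2 values after quantile normalization (log2 of the intensity plus 16). On that scale PT2 averaged 8.20 ± 0.43 in PI365967 under salt and 9.76 ± 0.54 in PI365967 controls, and 7.40 ± 0.49 in Moneymaker under salt and 10.48 ± 0.16 in Moneymaker controls (SD, n = 3 each).

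The fall of PT2 under salt was 1.56 ± 0.30 on the log2 scale in PI365967 (a log2 change of -1.56, SE; 2.95-fold lower; adjusted p = 0.00138) and 3.08 ± 0.30 in Moneymaker (-3.08; 8.48-fold lower; adjusted p = 5.56e-06), by limma with Benjamini-Hochberg adjustment over all probe sets. Counted from the most negative change, PT2 ranked 192 among the 10101 probe sets in PI365967 and 18 in Moneymaker. Both calls held in all 20 alternative settings. In the authors' deposited table of salt against control, the log2 difference of PT2 was -1.64 in PI365967 and -2.96 in Moneymaker.

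The salt effect on PT2 was less negative in PI365967 than in Moneymaker by 1.52 ± 0.43 on the log2 scale (adjusted p = 0.0401), where 13.2% of all probe sets were called for this difference and 6.15% in the same direction. The call was lost in 10 of 18 alternative settings, with values of 1.24 to 1.86 and adjusted p-values up to 0.0881, 8 of these when a single array was left out. The direction was the same in all 18. Without salt PT2 was at -0.72 ± 0.30 in PI365967 relative to Moneymaker and was not called (adjusted p = 0.0869). With the replicate number as a block over the control arrays, whose numbers went together, the same difference was just past the threshold (adjusted p = 0.0497). Under salt it was higher in PI365967 by 0.80 ± 0.30 (1.74-fold, adjusted p = 0.0472). That call was lost in 10 of 19 settings, and the lowest PI365967 and the highest Moneymaker salt array both stood at 7.70. The order of the group means was Moneymaker control, PI365967 control, PI365967 under salt and Moneymaker under salt, from high to low, and neither step between genotypes in this order was clear of the spread under all settings.

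PT1, the close relative of PT2 and also a root phosphate transporter, was not called lower in either genotype. Its salt effect was 0.01 ± 0.07 in PI365967 (adjusted p = 0.897) and 0.30 ± 0.07 in Moneymaker (adjusted p = 0.0035), a rise that was not called without normalization between arrays (0.09, adjusted p = 0.835). The ratio of PT2 to PT1 within an array, which is free of differences in array brightness, changed under salt by -1.51 in PI365967 and by -3.44 in Moneymaker on the log2 scale. In each genotype all 3 salt arrays had lower ratios than all 3 controls. The 3 pairs of relatives compared within arrays were chosen after their values were seen, so these ratios are given as a description with no test.

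**Figure D2:**
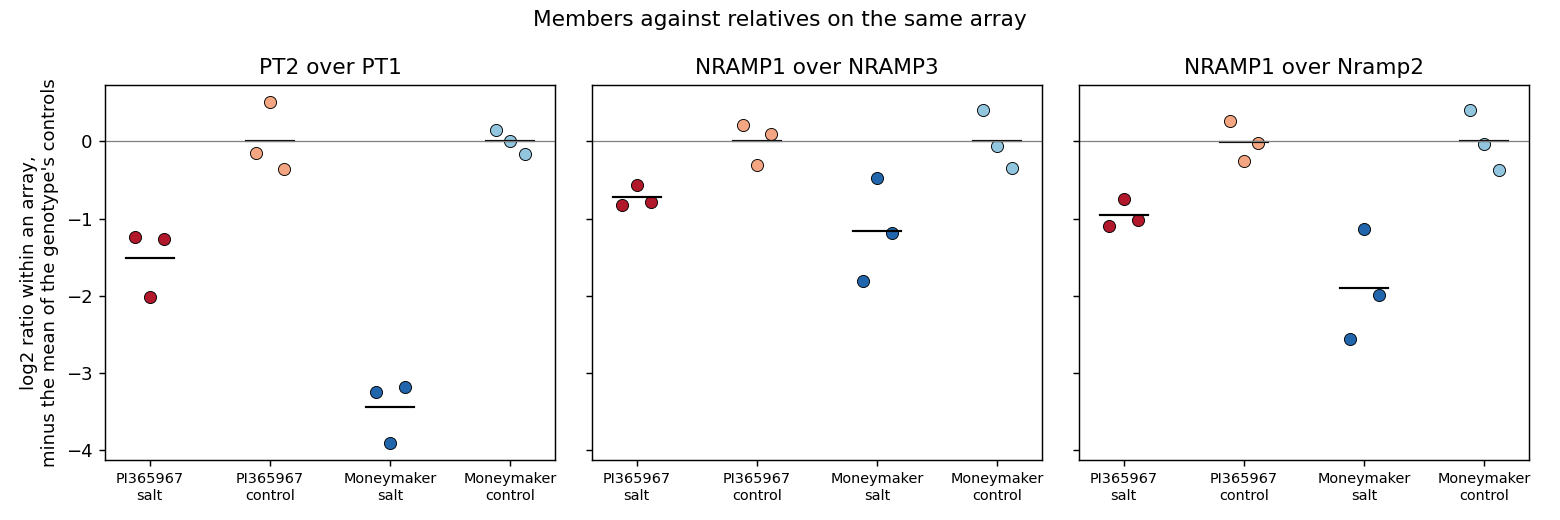
Log2 ratio of PT2 to PT1, NRAMP1 to NRAMP3 and NRAMP1 to Nramp2 within each array, minus the mean ratio of the control arrays of the same genotype (vertical axis), by group (horizontal axis). Points are arrays and bars are group means (n = 3); salt ratios lie under the control ratios of their genotype in all 3 panels, and for PT2 to PT1 the mean change is -1.51 in PI365967 and -3.44 in Moneymaker.

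The other phosphate genes on the array went different ways. PPCK1, a kinase that activates phosphoenolpyruvate carboxylase and is known in Arabidopsis as a gene of phosphate shortage, rose by 2.44 ± 0.17 in PI365967 and by 1.43 ± 0.17 in Moneymaker. PPCK2, of the same family, was at -0.43 ± 0.10 in PI365967 and 0.28 ± 0.10 in Moneymaker. Both values were called. The call in Moneymaker was lost in 7 of 20 settings, 4 of them with an array left out, and the value was -0.05 without normalization between arrays, where the call in PI365967 was lost too (adjusted p = 0.292). One probe set of PAP1 (Les.3748.1.S1_at) fell by 1.15 ± 0.15 in PI365967 and by 1.58 ± 0.15 in Moneymaker, while the second read -0.14 ± 0.13, not called, and -0.54 ± 0.13, called. This second probe set had a very weak signal, so its call says little about PAP1. Without the added 16 its group levels were 1.33 in PI365967 under salt and 3.13 in PI365967 controls. In Moneymaker they were 5.96 under salt and 16.0 in controls. TPSI1, a phosphate starvation-induced transcript, was not called in either genotype. Over the 6 phosphate probe sets other than PT2, 1 was called higher and 2 lower in PI365967, and 3 higher and 2 lower in Moneymaker. The weak second probe set of PAP1 is among the 2 lower in Moneymaker. For all probe sets the shares were 23.3% higher and 24% lower in PI365967, and 26% higher and 31% lower in Moneymaker.

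AMT1-2 gave the tightest replicates of the 3 transporters. Its deposited intensities were 1539, 1342 and 2012 in PI365967 under salt, against 4273, 2514 and 2543 in PI365967 controls. In Moneymaker they were 531, 441 and 588 under salt, against 3331, 1935 and 2384 in controls. The Moneymaker salt arrays were the lowest of all, and every PI365967 salt array was brighter than every Moneymaker salt array. After normalization AMT1-2 averaged 10.69 ± 0.03 in PI365967 under salt and 11.64 ± 0.21 in PI365967 controls, and 9.10 ± 0.10 in Moneymaker under salt and 11.15 ± 0.05 in Moneymaker controls (SD, n = 3 each).

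Salt lowered AMT1-2 by 0.95 ± 0.10 on the log2 scale in PI365967 (-0.95; 1.93-fold lower; adjusted p = 1.43e-05) and by 2.04 ± 0.10 in Moneymaker (-2.04; 4.13-fold lower; adjusted p = 3.02e-08). The salt effects differed by 1.09 ± 0.14, less negative in PI365967 (adjusted p = 7e-04), and this call held in all 18 settings, with values of 1.00 to 1.33. The authors' deposited table gave log2 differences of -0.84 in PI365967 and -1.62 in Moneymaker.

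Between the genotypes, AMT1-2 was higher in PI365967 both under salt and without it. Under salt the difference was 1.59 ± 0.10 (3.01-fold, adjusted p = 3.95e-07), and 26.6% of all probe sets were called higher in PI365967 there. Without salt it was 0.49 ± 0.10 (1.41-fold, adjusted p = 0.00251), against 19.2% of all probe sets. The difference without salt was not called when the arrays were left without normalization (0.28, SE 0.26, adjusted p = 0.532). The groups ranked PI365967 control, Moneymaker control, PI365967 under salt and Moneymaker under salt. The normalized values of no 2 neighbours in this order overlapped. Between the genotypes, 50.2% of all probe sets had no overlap without salt and 57.4% had none under salt, so this was common on the array. The share for Moneymaker control against PI365967 under salt was not computed. Whether the probes bind the transcripts of both genotypes equally was not tested, which bears on every difference between genotypes given here.

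**Figure D3:**
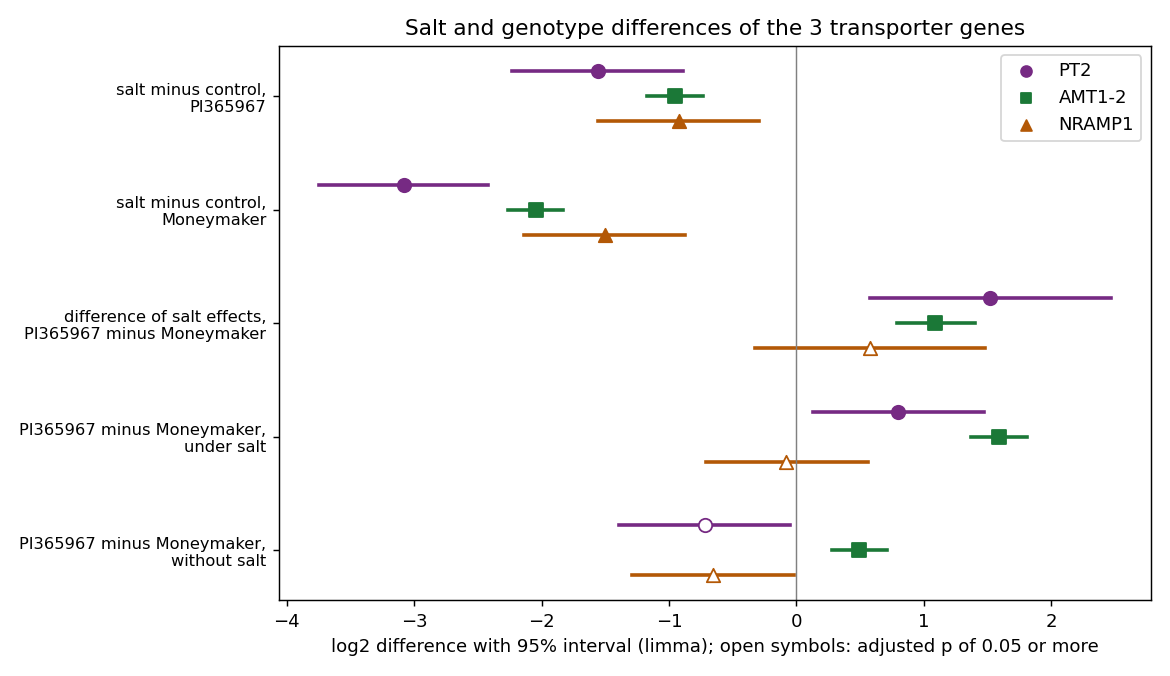
Log2 differences of PT2, AMT1-2 and NRAMP1 (horizontal axis) for the 5 comparisons (vertical axis), with 95% intervals from limma. Filled symbols have an adjusted p under 0.05; all 6 salt effects lie left of 0, and the AMT1-2 interval for the difference of salt effects (0.79 to 1.40) is the narrowest of that row.

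The genes that handle ammonium inside the cell did not follow AMT1-2 as a group. Both probe sets of gts1, a glutamine synthetase gene, fell: Les.224.1.S1_at by 1.80 ± 0.22 in PI365967 and by 2.35 ± 0.22 in Moneymaker, and Les.224.1.A1_at by 1.42 ± 0.13 and by 1.33 ± 0.13 in the same order. Both probe sets of gtsatom, listed beside it by name, rose. Probe set LesAffx.15898.2.S1_at was higher by 1.70 ± 0.14 in PI365967 and by 2.79 ± 0.14 in Moneymaker. The rise on LesAffx.15898.1.S1_at was smaller, 0.79 ± 0.09 in PI365967 and 2.21 ± 0.09 in Moneymaker. GS2, the glutamine synthetase of the chloroplast, was at -0.19 ± 0.08 in PI365967, not called, and at -0.29 ± 0.08 in Moneymaker, called. The glutamate dehydrogenase gene gdh1 rose in Moneymaker (0.81 ± 0.07) and was not called in PI365967 (-0.03 ± 0.07), and these salt effects differed by -0.84 ± 0.10 (adjusted p = 0.000547). Without normalization between arrays neither the rise (0.57, adjusted p = 0.0745) nor the difference (-0.59, adjusted p = 0.475) was called. Over the 6 nitrogen probe sets other than AMT1-2, 2 were called higher and 2 lower in PI365967, and 3 higher and 3 lower in Moneymaker. For all probe sets the shares were 23.3% higher and 24% lower in PI365967, and 26% higher and 31% lower in Moneymaker.

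NRAMP1 had a weak signal. Its deposited intensities were 14.6, 17.7 and 25.0 in PI365967 under salt, against 73.5, 39.5 and 44.5 in PI365967 controls. In Moneymaker they were 7.80, 30.9 and 23.6 under salt, against 199.6, 86.8 and 79.1 in controls. The salt arrays lay below the controls in both genotypes, and the salt arrays of the genotypes overlapped. For scale, the brightest of 23 non-plant control probe sets on each array ran from 11.1 to 30.2. NRAMP1 was above the brightest of them on 2 of 3 salt arrays in PI365967 and on 2 of 3 in Moneymaker, and on all control arrays of both genotypes, while PT2 and AMT1-2 were above them on all 12 arrays. Normalized, NRAMP1 averaged 5.17 ± 0.13 in PI365967 under salt and 6.09 ± 0.22 in PI365967 controls, and 5.24 ± 0.67 in Moneymaker under salt and 6.74 ± 0.41 in Moneymaker controls (SD, n = 3 each).

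NRAMP1 fell under salt by 0.92 ± 0.29 on the log2 scale in PI365967 (-0.92; 1.90-fold lower; adjusted p = 0.0214) and by 1.50 ± 0.29 in Moneymaker (-1.50; 2.84-fold lower; adjusted p = 0.000935). The size of these falls depends on the constant added before taking logs, since the signal is close to it: they were -1.35 in PI365967 and -2.15 in Moneymaker with 1 added, and -0.47 and -0.84 in the same order with 64. The call in Moneymaker held in all 18 settings. That in PI365967 was lost with 1 added (adjusted p = 0.0511) and when PI365967 salt array 1, control array 1 or control array 3 was left out (up to 0.0723). The salt effects of NRAMP1 differed by 0.58 ± 0.41 (95% interval -0.32 to 1.48, adjusted p = 0.391), an interval that includes the 1.09 of AMT1-2. Relative to Moneymaker, NRAMP1 in PI365967 was at -0.08 ± 0.29 under salt (interval -0.71 to 0.56, adjusted p = 0.855) and at -0.65 ± 0.29 without salt (adjusted p = 0.102; 0.0298 with the replicate number as a block over the control arrays). The means ran Moneymaker control, PI365967 control, Moneymaker under salt and PI365967 under salt from high to low. In the main fit neither the salt groups nor the control groups of the genotypes differed past the threshold. Besides the block, the control difference was called without normalization between arrays (adjusted p = 0.00356) and with 64 added (0.0402). It was also called without Moneymaker salt array 1 (0.0343) or 2 (0.0477). In the authors' deposited table NRAMP1 was not listed.

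NRAMP3 and Nramp2 are relatives of NRAMP1 in the same family. NRAMP3, known in Arabidopsis as a transporter that releases metals from the vacuole, fell by 0.29 ± 0.07 in PI365967 and by 0.52 ± 0.07 in Moneymaker. Nramp2 was at -0.07 ± 0.08 in PI365967, not called, and at 0.26 ± 0.08 in Moneymaker, called. Without normalization between arrays NRAMP3 in PI365967 (-0.22, adjusted p = 0.664) and Nramp2 in Moneymaker (0.04, adjusted p = 0.931) were not called, and the call of Nramp2 was also lost without Moneymaker salt array 3 (0.19, adjusted p = 0.0671). Within arrays the ratio of NRAMP1 to NRAMP3 changed under salt by -0.72 in PI365967 and by -1.16 in Moneymaker, and that of NRAMP1 to Nramp2 by -0.95 and by -1.90 in the same order. The change of the ratio to NRAMP3, averaged over the genotypes, was -0.94, and -0.34 with 64 added before taking logs.

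FER and FRO1, known partners of NRAMP1 in iron uptake by the root, also fell in both genotypes. FER declined by 1.05 ± 0.10 in PI365967 and by 1.09 ± 0.10 in Moneymaker, and FRO1, the ferric chelate reductase that makes iron available at the root surface, by 0.78 ± 0.15 and by 0.93 ± 0.15 in the same order. Neither differed between the genotypes in its salt effect by the test of the difference (adjusted p = 0.877 for FER and 0.696 for FRO1). MT3, a metallothionein, a small metal-binding protein, fell by 1.00 ± 0.14 in PI365967 and by 1.40 ± 0.14 in Moneymaker. Of the 4 probe sets of MT4, another metallothionein, 1 was called lower in PI365967 and 2 in Moneymaker, on different probe sets. A further MT4 probe set (Les.4426.1.A1_s_at) could hardly show a fall in PI365967. Its group level was 11.4 in PI365967 both under salt and in controls, against 5994 in Moneymaker under salt and 6626 in Moneymaker controls. Over the 10 metal probe sets other than NRAMP1, 0 were called higher and 5 lower in PI365967, and 1 higher and 6 lower in Moneymaker. For all probe sets the shares were 23.3% higher and 24% lower in PI365967, and 26% higher and 31% lower in Moneymaker. None of the 11 metal probe sets, NRAMP1 among them, was called for the difference of salt effects by limma, against 13.2% of all probe sets; with so few probe sets this says little about metal genes.

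**Figure D4:**
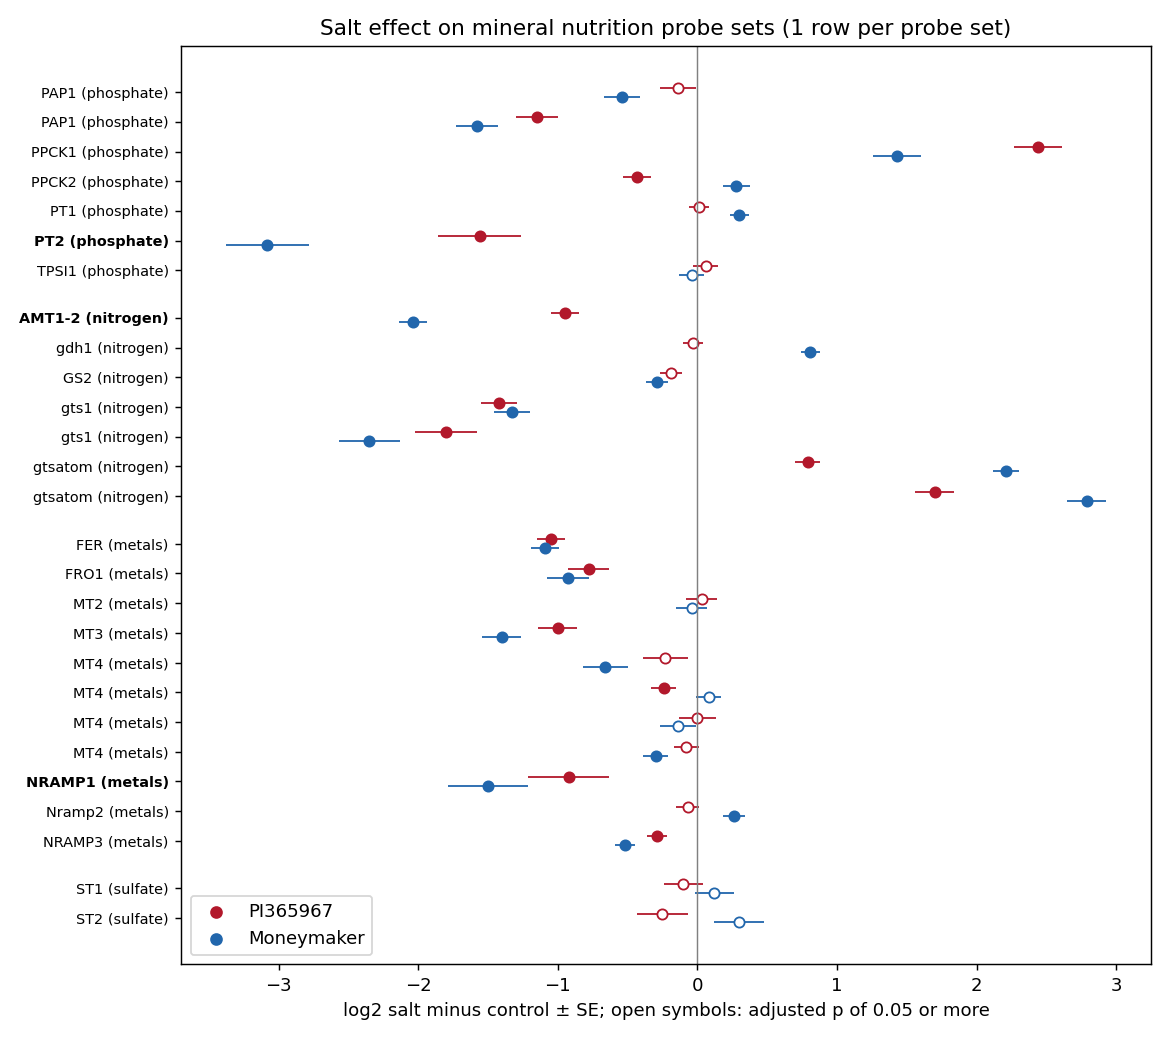
Log2 salt minus control ± SE (horizontal axis) of each probe set for phosphate, nitrogen, metal and sulfate genes (vertical axis, 1 row per probe set), red for PI365967 and blue for Moneymaker; filled points have an adjusted p under 0.05 and the transporters PT2, AMT1-2 and NRAMP1 are in bold. Of the 27 probe sets, 12 were called lower in PI365967 and 14 in Moneymaker, against 24% and 31% of all probe sets in the same order.

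Taking phosphate, nitrogen, metal and sulfate genes other than the 3 transporters together, 3 of 24 probe sets were called higher and 9 lower under salt in PI365967, where 23.3% of all probe sets were called higher and 24% lower. In Moneymaker 7 were called higher and 11 lower, the weak second probe set of PAP1 among the 11, where 26% of all were called higher and 31% lower. The median salt effect of the 24 was -0.17 in PI365967 and -0.09 in Moneymaker, against 0.00 and -0.05 over all probe sets in the same order. The sulfate transporter ST1 was not called for salt in either genotype and was higher in PI365967 by 1.17 ± 0.14 under salt and by 1.39 ± 0.14 without it. Its relative ST2 was called in none of the 5 comparisons.

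The pumps and channels that carry other ions differed in direction. NHX1, an exchanger that moves sodium into the vacuole, rose by 1.38 ± 0.13 in PI365967 and by 1.67 ± 0.13 in Moneymaker. LHA1, a plasma membrane proton pump of the kind that powers phosphate and ammonium uptake, rose in PI365967 (1.30 ± 0.09) and was not called in Moneymaker (0.09 ± 0.09), and these effects differed by 1.21 ± 0.13 (adjusted p = 0.00027). LHA2, another such pump, was not called in PI365967 (-0.10 ± 0.07) and fell by 0.51 ± 0.07 in Moneymaker. LKT1, an inward potassium channel of the root, was at -0.50 ± 0.13 in PI365967 and at 0.84 ± 0.13 in Moneymaker, both called, but neither without normalization between arrays. The calcium pump LCA1 was not called in PI365967 (-0.22 ± 0.10) and rose by 0.40 ± 0.10 in Moneymaker, a call lost without normalization (0.21). Of 7 probe sets in this list, 3 were called higher and 1 lower in PI365967, and 4 higher and 1 lower in Moneymaker. The list also holds NHX2 and SOS2, and SOS2 is not itself a pump or channel. SOS2 is among the 3 called higher in PI365967 (0.22 ± 0.08, adjusted p = 0.0473). For all probe sets the shares were 23.3% higher and 24% lower in PI365967, and 26% higher and 31% lower in Moneymaker.

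Because whole plants were extracted, a lower signal of a gene expressed mainly in roots can come from less RNA per root cell or from a smaller share of root in the sample, and these cannot be told apart. All 6 root markers and all 8 shoot markers were above every non-plant control on all 12 arrays. The brightest of these controls ran only from 11.1 to 30.2, so this says little about the share of either organ. Of the root markers, 4 were called lower and 0 higher in PI365967 under salt, and 4 lower and 2 higher (PT1 and LKT1) in Moneymaker. Over all probe sets, 24% were called lower and 23.3% higher in PI365967, and 31% lower and 26% higher in Moneymaker. Of the 6 root markers, 4 (FRO1, FER, LKT1 and PT1) also stand in the nutrition and ion transport lists. The summed normalized intensity of the root markers was 8501 to 9451 in PI365967 under salt and 12111 to 12409 in PI365967 controls, and 10696 to 11762 in Moneymaker under salt and 13431 to 14061 in Moneymaker controls. The largest part of this sum was PT1, which was not called lower in either genotype. Its group levels were 5770 in PI365967 under salt and 5717 in PI365967 controls, and 8785 in Moneymaker under salt and 7126 in Moneymaker controls. Of the shoot markers, genes of photosynthesis, 4 were called lower in PI365967 and 7 in Moneymaker, with none called higher, against the same shares of all probe sets. Their sum was 65513 to 68825 in PI365967 under salt and 78424 to 80234 in PI365967 controls, and 46563 to 50457 in Moneymaker under salt and 65547 to 74812 in Moneymaker controls. The part of the organ mix in the falls of PT2, AMT1-2 and NRAMP1 was not tested. The 25S ribosomal RNA probe set had a higher mean under salt, with overlap in PI365967, at -2.26 relative to the array median in PI365967 under salt and -2.92 in PI365967 controls, and at -1.07 in Moneymaker under salt and -2.93 in Moneymaker controls (mean log2, n = 3 each), and its part was not tested either.

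The transporters were all lower under salt in both genotypes. Over the 12 arrays each lay nearer to some other named genes than to another transporter. Likeness was measured as the root mean square difference between the normalized log2 values of 2 genes, each centred on its own mean, over 626 named genes. This measure counts the size of a change as well as its shape, so it cannot decide whether the transporters shared one pattern. PT2 and AMT1-2 lay 0.77 apart, AMT1-2 and NRAMP1 0.78, and PT2 and NRAMP1 0.87. Nearer to PT2 were cevi19 at 0.33, on a probe set that can also take signal from related transcripts, yfe37 at 0.46, TCP3, a transcription factor of the TCP family, at 0.48, the expansin gene exp9 at 0.55 and GA20OX1, a gibberellin-synthesis enzyme, at 0.58. Nearest to AMT1-2 were the expansin genes EXP1 at 0.24 and EXP5 at 0.28, the cell-wall enzyme gene XTH7 at 0.28, and matriochka and VDE, violaxanthin de-epoxidase of the chloroplast, at 0.30 each. Nearest to NRAMP1 were ALPHA-DOX2, a fatty acid dioxygenase gene, at 0.31, the endoglucanase gene CEL8 at 0.33, the homeobox gene KN1 at 0.34, and the expansin gene EXPA3 and TPRP-F1 at 0.36 each. For comparison, a gene with no change at all would lie 1.27 from PT2, 0.96 from AMT1-2 and 0.73 from NRAMP1. EXP1 had salt effects of -0.69 in PI365967 and -2.03 in Moneymaker, close to the -0.95 and -2.04 of AMT1-2 in the same order.

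**Figure D5:**
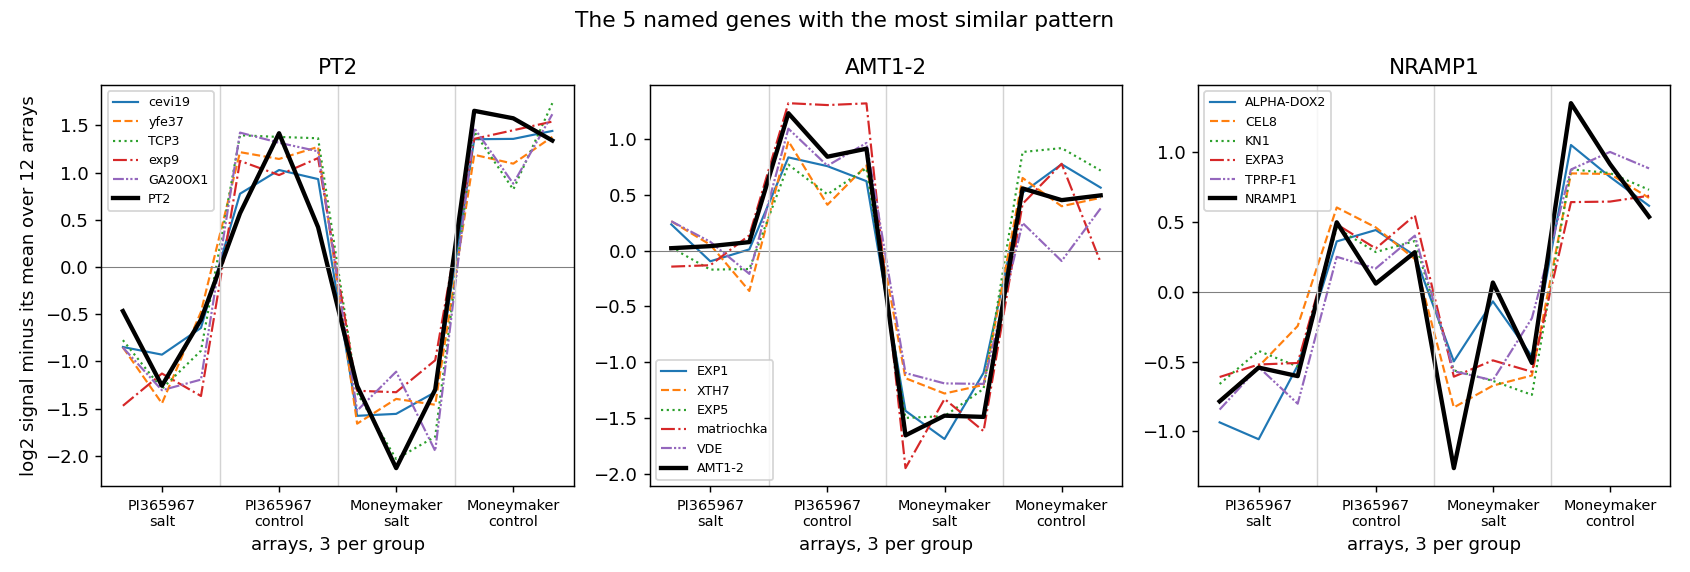
Log2 signal minus its mean over the 12 arrays (vertical axis) for PT2, AMT1-2 and NRAMP1 (thick black lines) and the 5 named genes nearest to each (thin lines); the horizontal axis holds the arrays, 3 per group, and lines only join the points of a gene. PT2 and its neighbours are highest in both control groups, AMT1-2 and its neighbours are lowest in Moneymaker under salt, and one Moneymaker salt array of NRAMP1 lies far above another.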

How the data were processed

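The values used were the authors' deposited intensity values, 1 linear intensity per probe set and array, made with a background correction and a probe summary not given in the sources used here. The authors also deposited, per genotype, log2 values of the same arrays for 8074 of the plant probe sets and, from a SAM analysis, a ratio (salt to control) with its q-value, in percent; these served as alternatives. Intensities became log2(value + 16), and the 10101 probe sets left after 108 control probe sets were set aside were quantile-normalized, since the array medians were unequal. limma (version 3.58.1, R 4.3.3) fitted 4 group means to 12 arrays (8 residual and 3.11 prior degrees of freedom), two-sided, with Benjamini-Hochberg adjustment over all 10101, and a call is an adjusted p under 0.05. The procedure was tested on simulated data. Precision is limited by the number of arrays (median SE of a salt effect 0.114). Replicate arrays correlated at 0.9909 to 0.9946. Same-numbered control arrays of both genotypes deviated together (correlations 0.12 to 0.16, against -0.13 to 0.01 for other numbers), so these groups were also fitted with the replicate number as a block. Same-numbered Moneymaker salt and control arrays leaned the same way more weakly (0.03 to 0.11, against -0.12 to 0.05 for other numbers). In the remaining group pairs same-numbered arrays correlated at -0.13 to 0.06. Groups other than the controls were not taken as paired. Gene names came from the platform annotation, which names 909 probe sets. The 3 transporters and the gene lists were chosen with earlier results of these data known. Named from each list were up to 5 genes with a call in any of the 5 comparisons, by the largest salt effect, besides relatives of the transporters and TPSI1 and ST2, which were added afterwards. TPx1 was dropped from the root markers after values were seen, as its annotation did not settle which gene it is. Alternatives covered normalization, the constant added, a filter on dim probe sets, the groups fitted, a replicate block and each array left out.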

Additional observations from a re-analysis of the deposited data

Results flagged for a closer look

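The salt effect differed between the genotypes by a test of the difference itself for 2 of the 3 transporters, where 13.2% of all probe sets were called. The salt effect on PT2 was less negative in PI365967 than in Moneymaker by 1.52 on the log2 scale (SE 0.43, adjusted p = 0.0401 by limma), a call lost in 10 of 18 alternative settings. That on AMT1-2 was less negative in PI365967 by 1.09 (SE 0.14, adjusted p = 7e-04), a call held in all 18. With 3 arrays in a group, single arrays were not tested for standing apart.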

How the results depend on the processing

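Of the 15 values of the transporters, the salt effects of PT2 and AMT1-2 in both genotypes, the AMT1-2 difference of salt effects and AMT1-2 under salt, and the NRAMP1 salt effect in Moneymaker kept their direction and call in every alternative run. The NRAMP1 difference of salt effects also kept its direction (0.23 to 0.91) and stayed uncalled in all 17 of its runs. Without normalization between arrays the counts of probe sets called were 1983 for salt in PI365967 (4781 with it), 3534 in Moneymaker (5756), 292 for the difference of salt effects (1337), 2020 between genotypes under salt (4961) and 1585 without salt (3718). The median salt effect of all probe sets was then -0.25 in Moneymaker, and 71.6% of its calls were lower, against 54.4% with normalization. Between genotypes without salt 81.3% of the calls were lower, against 48%, and for the difference of salt effects 39.7%, against 53.6% (64.6% with median centring). In that setting PT2 without salt was called at -1.0 and NRAMP1 without salt at -0.94, AMT1-2 without salt lost its call at 0.28, PPCK2 in Moneymaker turned to -0.05, and 15 of 38 calls of list genes were lost. The SE there was 0.26 for each salt effect of PT2, AMT1-2 and NRAMP1, against 0.30, 0.10 and 0.29 with normalization. Calls gained or lost without normalization thus go with a changed SE as well as with the missing scaling. These cannot be told apart. With 1 added before logs, NRAMP1 in PI365967 (-1.35), the PT2 difference of salt effects (1.60) and PT2 under salt (0.87) lost their calls, and the uncalled NRAMP1 difference under salt turned to 0.01. With 64 added, PT2 (-0.69) and NRAMP1 (-0.42) without salt gained calls. With the replicate number as a block, the PT2 difference of salt effects (1.52, adjusted p = 0.0635) and PT2 under salt (0.80, adjusted p = 0.0686) lost their calls. With that block over the control arrays alone, an alternative chosen after seeing the data, PT2 (-0.72, adjusted p = 0.0497) and NRAMP1 (-0.65, adjusted p = 0.0298) without salt gained calls; the blocks changed no other call of the transporters, and 7 of 12 arrays correlated best with their own number. With the 2 groups of the contrast alone, PT2 under salt (0.80) lost its call.

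When each array was left out in turn, NRAMP1 in PI365967 ranged from -1.04 to -0.81 (3 of 12 calls lost), the PT2 difference from 1.24 to 1.83 (8 lost), PT2 without salt from -1.03 to -0.53 (1 gained, without PI365967 control array 2), NRAMP1 without salt from -0.86 to -0.44 (2 gained), PT2 under salt from 0.52 to 1.05 (7 lost) and NRAMP1 under salt from -0.42 to 0.25, its sign turned without Moneymaker salt array 2. The filter that drops the dimmest 20% of probe sets removed NRAMP1, and the authors' second values gave salt effects only and no NRAMP1. Causes of these shifts were not tested. On 2 salt arrays NRAMP1 was no brighter than the brightest non-plant control.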
